A study of Homo sapiens with 8 samples.

Results

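The AAVS1 control libraries are 4 of the 8 libraries in a study of human acute myeloid leukaemia cells, and they were taken by their labels alone. AAVS1 is a site in an intron of PPP1R12C on chromosome 19 that is widely used as a neutral target, so cells edited there control for the editing itself. In 2 libraries, called KO 1 and KO 2 here, AAVS1 was targeted with Cas9 ribonucleoprotein, which cuts both DNA strands. In the other 2, called CBE 1 and CBE 2, the site was given a cytosine base editor. This is a fusion of a deaminase to an impaired Cas9 that changes C to T without cutting both strands. The titles give MOLM13 for KO 1 and CBE 1 and OCI-AML4 for KO 2 and CBE 2. MOLM13 is an established line from an acute myeloid leukaemia that carries a KMT2A-MLLT3 fusion and a FLT3 internal tandem duplication, and OCI-AML4 is an established line from another acute myeloid leukaemia. The labels give wild type as the genotype of all 4 and day 3 after editing as their time, and all were nucleofected with guide RNA. No unedited or mock-nucleofected library is among them, so what all 4 share with untreated cells was not measured. The other 4 libraries of the series target the long non-coding RNA HOTSCRAMBL and enter here only through alternative fits.

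The RNA was collected by chromatin isolation by RNA purification, in which cross-linked, sonicated lysate is captured with biotinylated DNA probes on streptavidin beads. The labels name neither the RNA that the probes target nor an input library, so every value below is an amount of RNA in the captured material and not a cellular level. Each line label has 1 library per editor, and nothing in the labels says that the libraries came from separate cultures. The p-values thus measure a spread between these libraries that is mostly pooled over genes and may be technical. The libraries held 24560289 counts (KO 1), 23531833 (KO 2), 31869901 (CBE 1) and 26684823 (CBE 2), and between 23811 and 26083 genes were detected in each. Both reads of a pair were counted separately, and between 71.8% and 74.3% of gene counts from 1 to 20 were even.

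Myeloid progenitors are set up by a small circle of transcription factors, among them PU.1 (SPI1), C/EBPα (CEBPA), RUNX1 and MYB, which switch on granule proteases and growth factor receptors. In leukaemias with a KMT2A fusion, the fusion protein binds chromatin with menin and keeps the HOXA genes and their cofactors MEIS1 and PBX3 on. Besides messenger RNA, nuclei hold abundant structured RNAs: U4 and U5 of the spliceosome, box C/D and box H/ACA small nucleolar RNAs that guide modification and processing of ribosomal RNA, and RMRP, the RNA of RNase MRP. 7SL, the RNA of the signal recognition particle, is mostly cytoplasmic.

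An abundant structured RNA and the most abundant small nucleolar RNA of each family are shown first, as their GENCODE v29 transcripts on GRCh38. RMRP (chr9:35657754-35658017, minus strand) had the highest level of any RNA and is shown with nothing in capitals. SNORD17 (chr20:17962710-17962946, minus strand) is shown with its C box, TGATGA, and its D box, CTGA, in capitals. SNORA73B (chr1:28508559-28508762, plus strand) is shown with the ACA that precedes its last 3 bases in capitals. Letters were searched in the transcript strand only, and among 437 snoRNA transcripts with a SNOR name 52.2% hold TGATGA, 81.0% hold CTGA and 26.5% hold ACA at that place.
RMRP: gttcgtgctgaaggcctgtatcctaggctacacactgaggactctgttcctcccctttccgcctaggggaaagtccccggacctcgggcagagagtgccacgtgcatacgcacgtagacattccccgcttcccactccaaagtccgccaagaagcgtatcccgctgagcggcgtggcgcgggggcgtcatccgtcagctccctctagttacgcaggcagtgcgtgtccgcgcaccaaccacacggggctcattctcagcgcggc
SNORD17: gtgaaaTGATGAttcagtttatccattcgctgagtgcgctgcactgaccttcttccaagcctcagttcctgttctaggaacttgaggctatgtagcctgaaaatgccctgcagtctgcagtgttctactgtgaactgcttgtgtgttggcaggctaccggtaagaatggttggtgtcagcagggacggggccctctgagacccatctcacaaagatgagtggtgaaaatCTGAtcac
SNORA73B: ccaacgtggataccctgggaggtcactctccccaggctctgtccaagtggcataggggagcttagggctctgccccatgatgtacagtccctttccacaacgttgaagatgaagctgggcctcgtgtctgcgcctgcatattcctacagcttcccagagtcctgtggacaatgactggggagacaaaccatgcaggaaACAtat

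Near-identical copies bear on the counts, because a read that fits several places was not counted. RNU4-1 (chr12:120293097-120293237, minus strand) and RNU4-2 (chr12:120291763-120291903, minus strand) are identical over 97.2%, with a longest shared run of 50 bases. From RNU4-1 to RNU4-2, counted from the 5′ end of RNU4-1, the differences are C37T, G88A, C99A and C113T. Capitals mark these positions, and the levels of both RNAs are uncertain for that reason.
RNU4-1: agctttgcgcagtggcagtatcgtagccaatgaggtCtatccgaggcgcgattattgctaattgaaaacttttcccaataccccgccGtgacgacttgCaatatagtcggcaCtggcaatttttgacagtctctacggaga
RNU4-2: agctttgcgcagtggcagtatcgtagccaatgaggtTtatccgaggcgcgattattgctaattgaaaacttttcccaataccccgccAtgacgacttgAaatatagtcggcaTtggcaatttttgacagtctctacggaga

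Protein-coding genes took 83.3% of counts in KO 1, 82.3% in KO 2, 82.4% in CBE 1 and 82.1% in CBE 2. The class of 7SL, RMRP and other small RNAs followed with a mean of 4.36% ± 0.311 (SD, n = 4), then long non-coding RNA with 3.68% ± 0.0879, mitochondrial mRNA with 3.63% ± 0.197 and mitochondrial ribosomal RNA with 3.31% ± 0.240. Small nucleolar and Cajal body RNAs took 0.624% and spliceosomal RNAs 0.0666%. Wilson 95% intervals of these shares were at most 0.0309 percentage points wide and cover counting error only. They treat the reads of a pair as independent, so they are too narrow. Counts were spread over many genes: 831 genes held 50% of them, 5986 held 90%, and the 10 highest held between 10.6% and 11.3% in each library.

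**Figure D1:**
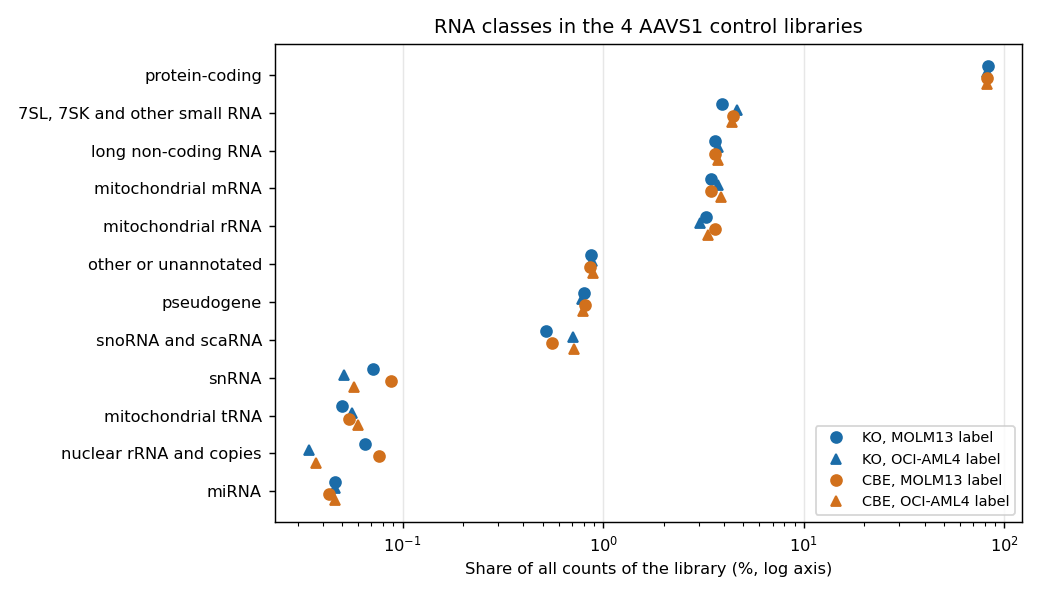
Share of all counts (x axis, %, log scale) taken by each RNA class (y axis) in each library: blue, KO; orange, CBE; circles, MOLM13 label; triangles, OCI-AML4 label. Protein-coding genes lie between 82.1% and 83.3%, and nuclear rRNA copies and snRNA are higher in both circles than in both triangles.

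Class shares are given as values: with 2 libraries against 2, the exact two-sided permutation test cannot go below p = 0.333, so it could call no difference whatever its size, and it does not use the line labels as pairs. Mitochondrial ribosomal RNA, the RNA of the mitochondrial ribosome, took 3.25% and 3.03% of counts in KO 1 and KO 2 and 3.61% and 3.33% in CBE 1 and CBE 2. The KO libraries were thus below the CBE libraries without overlap, by 0.361 percentage points under the MOLM13 label and by 0.292 under the OCI-AML4 label (exact permutation p = 0.333). The miRNA gene share also did not overlap, with means of 0.0465% in KO and 0.0445% in CBE (exact permutation p = 0.333). In every other RNA class the editors overlapped. Under random labels a class would separate with that same probability of 0.333.

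Levels are given as CPM per kilobase (counts scaled to the total of the library and divided by the exon length of the gene), which allows genes of different length to be compared. RMRP stood at 67660 in KO 1, 116100 in KO 2, 83880 in CBE 1 and 110600 in CBE 2. Its levels under the OCI-AML4 label were above those under the MOLM13 label with either editor. RN7SL1 stood at 61510, 45000, 64490 and 40910 in the same order, with the MOLM13 label above. The mitochondrial ribosomal RNA MT-RNR2 followed with a mean of 18020 ± 1214 (SD, n = 4), then SNORA73B with 8436 ± 1540 and SNORD17 with 7166 ± 2055.

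MT-ND4, a subunit of respiratory complex I, stood at 5108, 5110, 4858 and 5220, and MT-ND5, another, at 5074, 4987, 4961 and 5124, so the editors overlapped for both. MT-CO1, MT-CO2 and MT-CO3, the mitochondrial subunits of cytochrome c oxidase, had means of 4326, 3083 and 2998. MT-CO2 was lower in both MOLM13-labelled libraries (2763 and 2813) than in the others (3352 and 3404), with an adjusted p of 0.028 in edgeR for the label. MT-RNR1 stood at a mean of 5207 and the 5 highest mitochondrial tRNAs, MT-TY, MT-TC, MT-TP, MT-TN and MT-TH, between 565.1 and 1564. Among the other small RNAs, RN7SL4P had a mean of 4179, RN7SL3 of 2499 and RN7SKP255, a pseudogene of 7SK, of 396. Small RNAs shorter than the sequenced fragments are counted only in part, so levels of tRNA and miRNA genes describe what this library kit recovered.

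Of the small nucleolar and Cajal body RNAs, SCARNA21 had a mean of 2680 ± 319 (SD, n = 4), SNORD15B of 2320 ± 898 and SCARNA5 of 1997 ± 163. The highest spliceosomal RNA was RNU4-2, at 1579, 1136, 2017 and 1250, and RNU4-1 stood at 1008, 603.1, 1317 and 699, so both were lowest in the OCI-AML4-labelled libraries. RNU5A-1, RNU5B-1 and RNVU1-27 had means of 539.9, 219.6 and 86.2. Among copies of 5S ribosomal RNA, RNA5SP149 stood at 3527, 816.7, 3910 and 962.1, with no overlap between the labels. RNA5SP202, RNA5SP145, RNA5SP429 and RNA5SP199 had means of 1171, 295.3, 131.1 and 115.7, and reads from the main 5S genes cannot be told apart from those of these copies. MIR5690 led the miRNA genes with a mean of 2235, followed by ENSG00000275110 (762.3), MIR3686 (189), MIR4485 (167.7) and MIR3609 (130.8).

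The protein-coding gene with the highest level was PRTN3, which encodes proteinase 3 of azurophil granules, at 940.4, 1301, 939.3 and 1265. Its OCI-AML4-labelled libraries lay above the MOLM13-labelled ones with either editor. DYNLT5, of the dynein light chain family, had a mean of 1002 ± 101 (SD, n = 4), FTL, the ferritin light chain, of 820.2 ± 138, CLEC11A, a secreted haematopoietic growth factor, of 650.8 ± 43.9, and H1-4, a linker histone, of 615.8 ± 68.3. The median of expressed protein-coding genes was 7.13. Among long non-coding RNAs the highest were ENSG00000274383 (mean 651.2), ENSG00000270182 (433.7, at chr7:27158344-27158976 in the HOXA cluster), ENSG00000233340 (335), ENSG00000241269 (249.2) and ENSG00000257883 (214.6). Pseudogenes were led by MTATP6P1, a nuclear copy of mitochondrial sequence (280), H2AZP1 (235.9), SNX18P7 (94.9), ENSG00000277867 (72.2) and HMGB3P4 (61.6). Genes without an annotated class were led by ENSG00000289474 (381.2), ENSG00000291058 (105), ENSG00000290124 (68.5), ENSG00000288025 (56.1) and ENSG00000288156 (55.7).

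A gene was counted as expressed when its level was at least 1 in each of the 4 libraries, which held for 12647 of 63140 genes (20.0%) and for 9438 of 20316 protein-coding genes (46.5%). Of 23 myeloid transcription factors, 20 were expressed, and their median level was 27.7. MYB stood at 187, 191.4, 204.8 and 185.6, and PBX3, the HOXA cofactor, at 144.1, 151.1, 135.4 and 149.8. SPI1 stood at 74.0, 71.7, 65.0 and 68.9, so KO was slightly above CBE, and IRF8, which directs monocyte and dendritic fate, at a mean of 67.6 ± 3.74 (SD, n = 4). The largest of their log2 differences, between editors or between labels, was 0.14, for IRF8 between the labels, and none of the 4 was called. MYC had a mean of 66.3, GFI1 of 63.3, CEBPA of 53.7, LMO2 of 53.5, RUNX1 of 43.1 and MEIS1 of 24.0. CEBPE, which acts late in granulocyte maturation, was at 1.02, 0.867, 0.640 and 0.128, and ERG had 0 counts in all 4.

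Of the 16 granule and effector genes, 12 were expressed, and their median level was 11.4. AZU1, the granule protein azurocidin, stood at 566.3, 600.5, 542.4 and 587.6, and ELANE, neutrophil elastase, at 203.5, 327, 243.3 and 351.7. ELANE was lowest in the MOLM13-labelled libraries, as PRTN3 was, and AZU1 differed less (log2 fold change between the labels -0.07, not called). SRGN, the granule proteoglycan serglycin, had a mean of 141.9 and LYZ, lysozyme, of 79.3. MPO, myeloperoxidase, stood at 12.7, 11.3, 12.2 and 9.69, below PRTN3, AZU1 and ELANE. CTSG, the granule protease cathepsin G, stood closer to it, at 24.8, 27.5, 22.5 and 22.2. S100A9, a calcium-binding protein of neutrophils and monocytes, had 20 counts in KO 1, 8 in CBE 1 and 0 in both OCI-AML4-labelled libraries. LTF and CAMP, proteins of later specific granules, had 0 counts in all 4.

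Of 21 myeloid surface and receptor genes, 13 were expressed, with a median of 5.90. CD33, a sialic acid-binding receptor of myeloid cells, stood at 34.1, 32.1, 33.1 and 33.1, and the editors overlapped. ITGAX, SELPLG and LILRB4 had means of 16.4, 16.4 and 14.8. CD34 and PROM1, markers of stem and progenitor cells, had means of 0.0173 and 0, and CD14 and CD68, of monocytes and macrophages, 0.0618 and 0.00982. CD68 shares 85.6% of its exon length with exons of other genes, where reads were not counted, so its value does not show that it is absent. IL3RA and CSF2RA are listed at 0 but say nothing of expression: they are among 30 genes that the annotation lists at the same coordinates on both X and Y, and none of these 30 had a count.

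**Figure D2:**
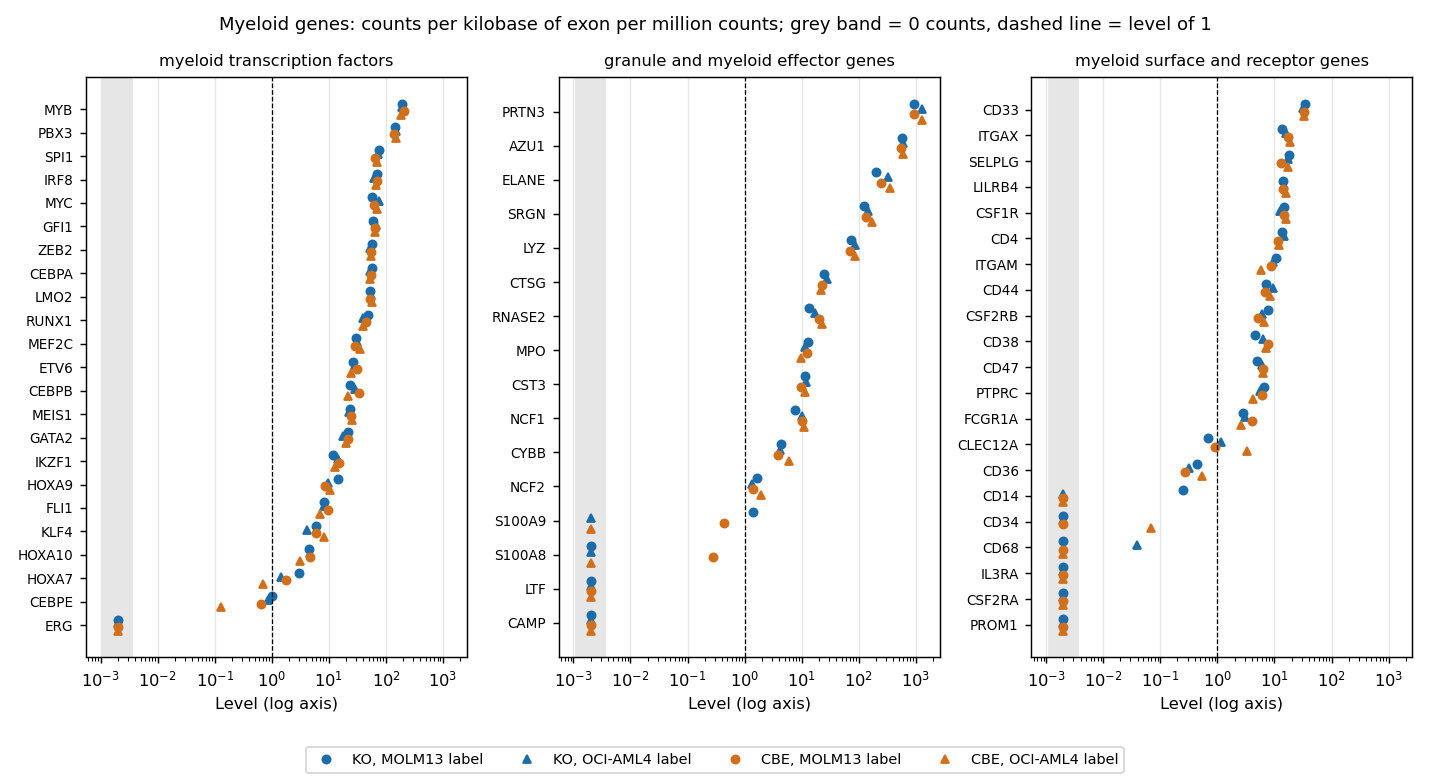
Level of each gene of 3 myeloid lists (x axis, CPM per kilobase, log scale; grey band, 0 counts; dashed line, level of 1) in each library: blue, KO; orange, CBE; circles, MOLM13 label; triangles, OCI-AML4 label. PRTN3 reaches 1301 in KO 2, and ERG, LTF, CAMP, IL3RA, CSF2RA and PROM1 lie in the grey band in all 4 libraries.

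Of 12 long non-coding RNAs in a fixed list that includes NEAT1 and MALAT1, 11 were expressed. NEAT1, the scaffold of paraspeckles, stood at 71.8, 71.7, 69.5 and 75.0, and MALAT1, of nuclear speckles, at 74.2, 65.8, 67.4 and 70.1, so the editors overlapped on both. MALAT1 shares 83.7% of its exon length with exons of other genes, where reads were not counted, so its level is an undercount. PVT1, a neighbour of MYC, had a mean of 29.8, and MIAT was lowest at 0.152. Of 8 single-copy Y-linked genes, 6 were expressed in all 4 libraries, led by RPS4Y1 (mean 44.9) and KDM5D (35.5), and the list summed to between 107.8 and 142.1.

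Of 28 genes recurrently mutated in acute myeloid leukaemia, 27 were expressed, with a median of 9.78. CSF3R, the receptor of granulocyte colony-stimulating factor, stood at 75.2, 71.0, 69.2 and 73.2, and FLT3, a receptor kinase, at 58.6, 55.4, 60.4 and 61.4. The editors overlapped on CSF3R, FLT3 was slightly lower in KO, and neither was called. SF3B1 and ZRSR2, of the splicing machinery, had means of 48.7 and 35.6. KIT, the receptor of stem cell factor, had 0 counts in all 4. Of 10 genes of KMT2A fusions and menin complexes, 9 were expressed, among them DOT1L, the H3K79 methyltransferase, at a mean of 37.9, MLLT1 at 36.5 and CDK9 at 33.7. KMT2A itself had a mean of 2.44 and MLLT3 of 1.18, and counts per gene cannot show whether their reads came from a fusion.

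The HOX genes, which give position along the body axis and are arranged in 4 clusters, divided by cluster. All 11 HOXA coding genes had counts, and 6 were expressed in each library. HOXA6 stood at 6.50, 11.8, 13.2 and 12.8, HOXA9 at 14.3, 9.75, 8.69 and 10.3, and HOXA5 at 12.7, 9.76, 9.98 and 7.82. HOXA6 was lower in KO than in CBE and HOXA5 higher under MOLM13 than under OCI-AML4 by narrow margins, HOXA9 overlapped in either grouping, and none of the 3 was called. HOXA3 had a mean of 7.78, HOXA10 of 4.23 and HOXA11 of 3.09, and HOXA2 was low at 0.469. All 9 HOXC and all 9 HOXD genes, and all HOXB genes but HOXB7 (mean 0.188), had 0 counts in all 4 libraries. A count of 0 allows up to about 3 fragments per library, and both reads of a fragment were counted. Of 6 long non-coding RNAs of the HOXA cluster, 4 were expressed: HOXA10-AS (mean 16.8), HOXA-AS2 (9.52), HOXA-AS3 (3.26) and HOXA11-AS (2.00). HOTAIRM1 had a mean of 1.16 and HOTTIP of 0.151. Strand was not used in counting and several of these genes overlap on opposite strands, so their values are uncertain.

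**Figure D3:**
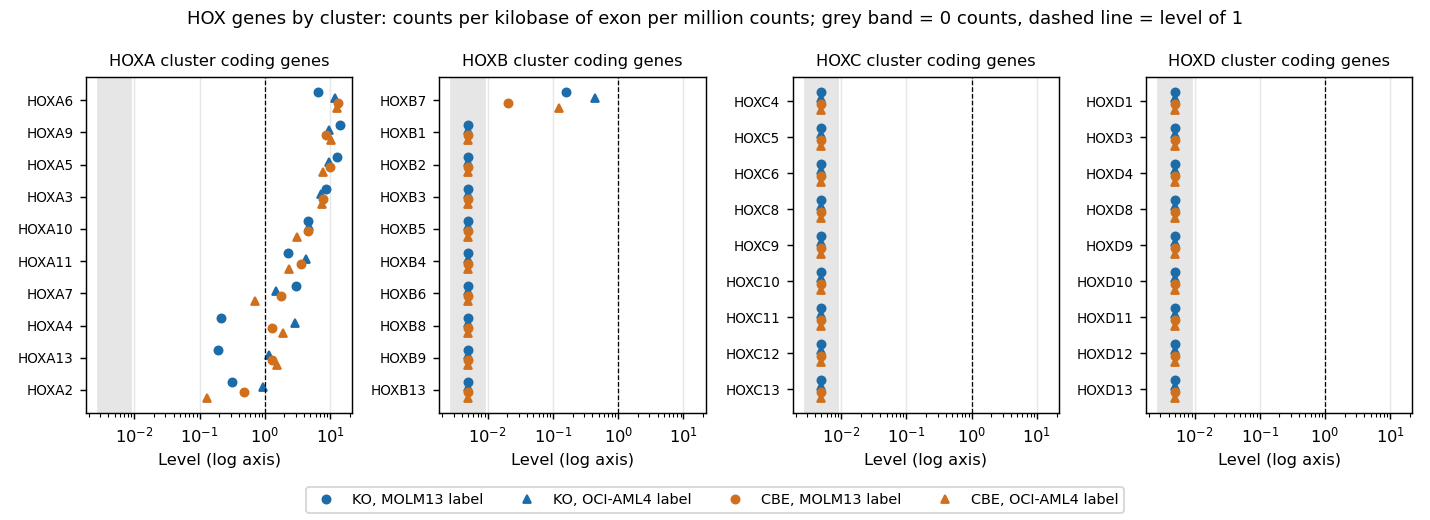
Level of HOX coding genes, 10 of the 11 in the HOXA cluster and all others, (x axis, CPM per kilobase, log scale; grey band, 0 counts; dashed line, level of 1) by cluster and library: blue, KO; orange, CBE; circles, MOLM13 label; triangles, OCI-AML4 label. HOXA genes reach 14.3, HOXB7 reaches 0.447, and every other HOXB gene and every HOXC and HOXD gene lies in the grey band.

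The 250 bases before the RefSeq start (GRCh38.p14) are shown for HOXA6 and HOXA9, of the cluster with counts, for HOXD10, of a cluster without, and for PRTN3, the most abundant coding gene. The windows are chr7:27147775-27148024 (HOXA6, minus strand), chr7:27165538-27165787 (HOXA9, minus strand), chr2:176116528-176116777 (HOXD10, plus strand) and chr19:840749-840998 (PRTN3, plus strand). Capitals mark CG dinucleotides, of which HOXA6 has 27, HOXA9 has 20, HOXD10 has 23 and PRTN3 has 6. Over 35116 RefSeq windows of this length, 93.9% hold a CG and the median number is 11. The letters TATAAA, on either strand, are in the HOXA9 window and in 10.7% of all windows. A comparison of promoter composition between expressed and silent coding genes was void, because a RefSeq window was found for 82.1% of the first and 68.1% of the second.
HOXA6: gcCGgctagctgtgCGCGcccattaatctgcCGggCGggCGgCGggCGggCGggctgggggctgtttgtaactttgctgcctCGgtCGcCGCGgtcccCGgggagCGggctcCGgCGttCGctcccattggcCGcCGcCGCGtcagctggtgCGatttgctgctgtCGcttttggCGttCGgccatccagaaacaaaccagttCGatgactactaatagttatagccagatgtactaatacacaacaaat
HOXA9: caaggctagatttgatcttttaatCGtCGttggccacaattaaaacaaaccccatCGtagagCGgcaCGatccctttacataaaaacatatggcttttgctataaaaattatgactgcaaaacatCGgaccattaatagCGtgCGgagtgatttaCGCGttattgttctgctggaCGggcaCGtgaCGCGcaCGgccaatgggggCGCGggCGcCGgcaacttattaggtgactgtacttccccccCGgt
HOXD10: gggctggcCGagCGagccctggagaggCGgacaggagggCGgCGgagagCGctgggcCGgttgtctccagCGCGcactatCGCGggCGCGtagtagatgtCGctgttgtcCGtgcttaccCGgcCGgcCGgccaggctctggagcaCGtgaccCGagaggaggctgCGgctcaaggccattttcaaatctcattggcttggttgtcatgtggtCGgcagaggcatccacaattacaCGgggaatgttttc
PRTN3: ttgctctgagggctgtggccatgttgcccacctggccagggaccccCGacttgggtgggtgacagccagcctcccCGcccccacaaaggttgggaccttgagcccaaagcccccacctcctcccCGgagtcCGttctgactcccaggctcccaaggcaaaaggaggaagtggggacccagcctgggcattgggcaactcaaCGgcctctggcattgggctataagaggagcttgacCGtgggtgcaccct

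In all, 31423 genes (49.8%) had 0 counts in each of the 4 libraries, among them 4900 protein-coding genes (24.1%). Some could not be counted: of 3050 genes whose exons lie at least 99% inside exons of other genes, 3032 (99.4%) were at 0, against 47.3% of the other 60090. RN7SK, the RNA that holds P-TEFb inactive, RN7SL2, another 7SL gene, and RPPH1, the RNA of RNase P, are of this kind and are listed at 0. Without such genes and the X and Y copies, 28333 genes were silent, of them 4513 protein-coding.

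Markers of other cell types were mostly at or near 0, which is the check of the labelled cell type. In each of the 4 libraries the summed level was 2.94 to 3.75 for 7 B cell markers, 1.93 to 2.71 for 10 T and NK cell markers and 0.0913 to 1.96 for 10 erythroid markers. Against these, the 16 granule genes summed to between 1984 and 2544, and the 21 myeloid surface and receptor genes to between 150.0 and 158.3. CD79A, CD79B and MS4A1 of B cells had 3 or fewer counts in every library, and 1 of the 7 B cell markers was expressed. CD3D, CD3E, CD8A, CD2 and TRAT1, of T cells, were at 0, with CD3G and NCR1 at 3 or fewer counts, while NCAM1, of NK cells, had a mean of 1.79. HBB, HBG1, HBA2, AHSP and GYPB, of red cells, were at 0 (HBA1 and HBA2 are near-identical copies, so reads that fit both were lost). KLF1 had 44 counts in CBE 2 and 0 in the others. SLC4A1 had 39 in CBE 1 and 1 or fewer in the others, and ALAS2 had 4 to 36 in each library. Of 7 megakaryocyte markers, PPBP and PF4 (52.1% of its exon length shared with other genes) were at 0, and GP6 and GP1BA had means of 6.68 and 6.02. The megakaryocyte markers summed to between 11.1 and 16.5, above the lymphoid and erythroid lists. EPCAM, KRT5 and KRT19, of epithelium, COL1A2, COL3A1, LUM, DCN, CDH5, KDR and TEK, of fibroblasts and endothelium, and ALB, TTR, MYH7, NEUROD1 and SYT1, of liver, muscle and neurons, were all at 0. The epithelial markers KRT18, KRT8, CLDN4 and CDH1 had counts, and their list summed to between 0.523 and 1.33. COL1A1, VWF and PDGFRA, of fibroblasts and endothelium, also had counts, with a list sum between 0.025 and 0.262. No marker of either list was expressed. The other 6 of the 11 liver, muscle and neuron markers had counts, and the list summed to 1.60, 7.94, 0.632 and 3.73. APOA1 (12, 173, 0 and 80 counts) made most of the sum in both OCI-AML4-labelled libraries, and RBFOX3, a neuronal splicing factor, had 94 to 132 counts in each library.

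**Figure D4:**
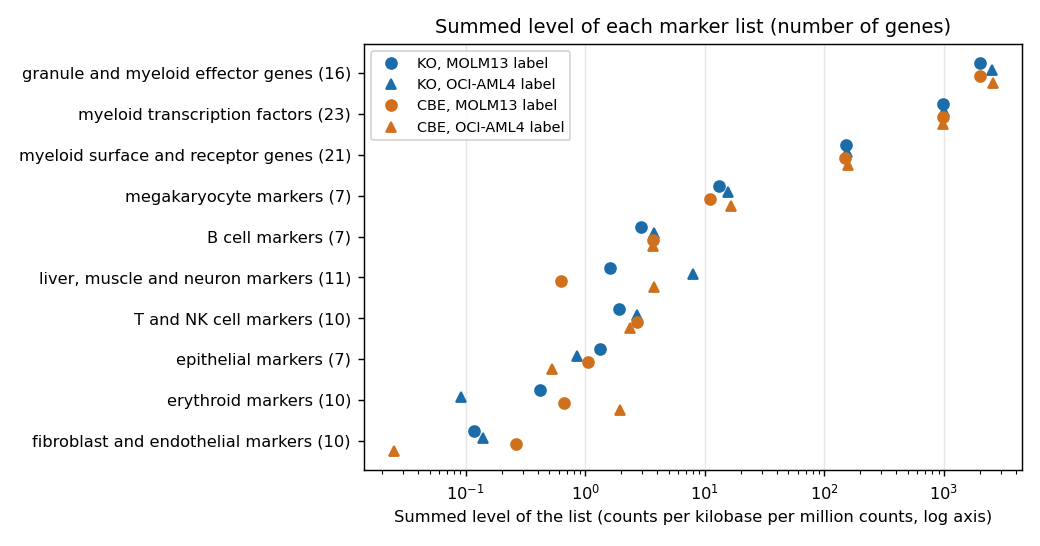
Summed level (x axis, CPM per kilobase, log scale) of each marker list (y axis, number of genes in brackets) in each library: blue, KO; orange, CBE; circles, MOLM13 label; triangles, OCI-AML4 label. The granule list lies between 1984 and 2544, and the lists of lymphoid, erythroid, epithelial and stromal cells lie below 4. The megakaryocyte list lies between 11.1 and 16.5, and the liver, muscle and neuron list between 0.632 and 7.94.

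The first comparison asks whether Cas9 and the base editor left different RNA behind at the same neutral site. It found no called gene: of 21183 genes tested with edgeR's quasi-likelihood test, with the line label as a block, 0 (0%) passed a Benjamini-Hochberg adjusted p of 0.05, and the smallest adjusted p was 0.265. An unadjusted p under 0.05 was met by 932 genes (4.4%), of which 458 were higher in KO (2.16% of those tested) and 474 lower (2.24%). DESeq2 called 0 with 917 at an unadjusted p under 0.05, and limma-voom called 1, MT-RNR1. The test has 1 residual degree of freedom per gene, beside a median of 164 prior degrees of freedom drawn from all genes. SE, intervals and p-values thus rest mostly on spread pooled over genes, not on that of the gene itself. The median 95% interval of a log2 fold change reached 1.09 to either side. It was 0.33 for the 25% of genes with the highest levels and 5.69 for the 25% with the lowest.

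**Figure D5:**
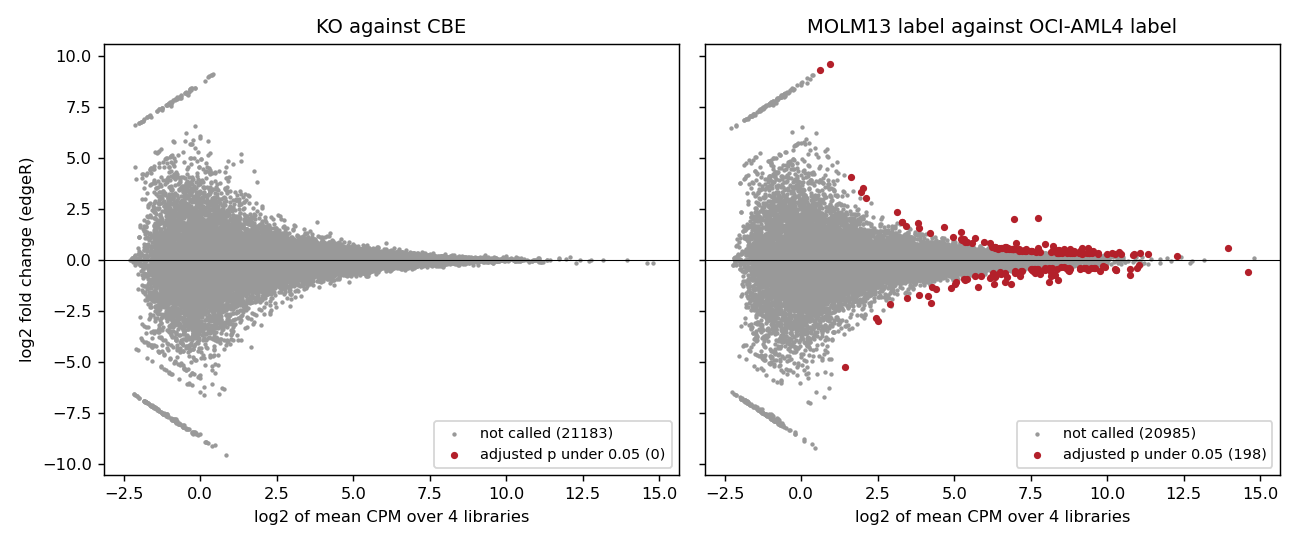
log2 fold change (y axis, edgeR) against log2 of the mean CPM (x axis) for 21183 genes in the 4 libraries, for KO against CBE (left, positive is higher in KO) and for the MOLM13 against the OCI-AML4 label (right, positive is higher under MOLM13). Red points, 0 on the left and 198 on the right, have an adjusted p under 0.05.

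PPP1R12C, the gene that holds the AAVS1 site (chr19:55090914-55117637), stood at 48.6, 52.7, 50.1 and 49.7. Its KO and CBE libraries overlapped, and the log2 fold change was 0.03 with a 95% interval from -0.16 to 0.21. Of 12 genes around the site, 7 were expressed, among them HSPBP1 (mean 11.7), RDH13 (10.7) and EPS8L1 (9.87). None of the 11 tested had an unadjusted p under 0.05, and their median log2 fold change was 0.06, beside -0.01 over all genes tested. Guides and edited alleles were not read from these counts.

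The genes with the smallest p upward were GPR132, NHSL1, TCEAL8, ENSG00000233665 and ENSG00000291055, and none was called. GPR132, a proton-sensing and lipid-sensing receptor, stood at 20.3 and 20.7 in KO and at 11.04 and 12.21 in CBE. The groups did not overlap, with a KO against CBE difference of 0.82 ± 0.19 (SE, log2) that had an adjusted p of 0.265 in edgeR. NHSL1 stood at 2.99, 1.61, 1.57 and 0.214, so that KO 1 was highest and CBE 2 lowest. TCEAL8 had 140 and 94 counts in KO and 6 and 2 in CBE (log2 fold change 5.23 ± 1.31, adjusted p = 0.532, edgeR).

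Downward, genes among those with the smallest p were ENSG00000233511, CLSTN2, ENSG00000289557 and ACOT8, none called. The pseudogene ENSG00000233511 had 0 counts in both KO libraries and 71 and 134 in CBE. CLSTN2, a calsyntenin, had 2 and 18 counts in KO and 136 and 200 in CBE. ACOT8, a peroxisomal thioesterase, stood at 2.94 and 2.84 against 6.08 and 7.33. The genes named here, upward and downward, were picked by this same contrast, so the distance of KO from CBE in them follows from the choice.

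Lists that bear on editing are described by their counts. Of 123 tested genes in 7 lists, 8 (6.50%) had an unadjusted p under 0.05, beside 4.4% of all genes, and their median log2 fold change was 0.04 beside -0.01. None was called by edgeR. Among 23 p53 targets, which a double-strand cut can induce, 21 were expressed, and CDKN1A, the cell cycle inhibitor, stood at 41.6, 55.6, 47.8 and 57.8. The editors overlapped while the labels did not, with a 95% interval of the KO against CBE log2 fold change from -0.37 to 0.13. BBC3 and TNFRSF10B, of the apoptosis arm, had means of 98.3 and 52.7, and MDM2, the p53 ligase, of 34.5, with an interval from -0.25 to 0.15. BTG2 was the only p53 target with an unadjusted p under 0.05 (log2 fold change -0.64).

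Of 19 double-strand break repair genes, 18 were expressed, led by PRKDC (mean 47.7), H2AX (37.5), XRCC6 (22.2) and POLQ (20.5). PRKDC, the kinase of end joining, had an interval from -0.19 to 0.09, and POLQ alone in the list had an unadjusted p under 0.05 (log2 fold change 0.25). Of 19 cytidine deaminase and uracil repair genes, 11 were expressed, led by APEX1 (57.7), MBD4 (18.4), XRCC1 (11.5) and LIG3 (11.2). POLB, the base excision polymerase, stood at 2.36, 3.94, 5.50 and 5.88. KO was below CBE in both pairs, with a log2 fold change of -0.89 and an interval from -1.59 to -0.19 that is not adjusted for the number of genes. APOBEC3A and APOBEC1, whose rat homologue is the deaminase of many base editors, had 0 counts, and APOBEC3B had 21, 3, 88 and 70.

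Interferon-stimulated genes were low: 4 of the 22 in the table were expressed, among them BST2 (31.1) and IRF7 (15.9), and the list had a median of 0.295. ISG15 had 14 and 6 counts in KO and 80 and 72 in CBE, and its 95% interval reached from -6.01 to 0.54. None of the 19 tested had an unadjusted p under 0.05. All 20 proliferation genes were expressed, led by MCM3 (66.1), PCNA (48.8), MCM7 (42.4) and MKI67 (26.8), and MKI67 (-0.21) and RRM2 (-0.32) had an unadjusted p under 0.05. Of 16 immediate early and stress genes, DDIT4 (593.6), JUND (430.1), FOS (157.1) and EGR1 (124.5) were highest, and FOSB (0.23), JUNB (-0.38) and DDIT3 (-1.02) had an unadjusted p under 0.05. DDIT3, a factor of the unfolded protein response, stood at 4.30, 8.88, 16.3 and 9.78, so KO lay below CBE, with KO 2 close to CBE 2. Outside these lists an unadjusted p under 0.05 was met by MLLT1 (0.26), ITGAM (0.52), CD38 (-0.49), ITGAX (-0.31), HOXA13 (-1.53) and APOA1 (2.55). Over all fixed lists that made 14 of 257 tested genes (5.45%), none of them called.

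The second comparison asks how the 4 controls vary with the line label. It called 198 of 21183 genes (0.935%) by edgeR with the editor as a covariate, with 0.529% of the tested genes higher and 0.406% (86 genes) lower for MOLM13. An unadjusted p under 0.05 was met by 1817 genes (8.58%), of which 4.77% of those tested were higher and 3.8% lower. Each of the 198 lay in the same direction with both editors, which their selection by a fit to these same 4 libraries favours. Their median absolute log2 fold change was 0.54, and 39 exceeded 2-fold. Fitted with all 8 libraries of the series and 1 line term for all of them, the count was 193, of which 122 genes were among the 198, and with any 1 AAVS1 library left out it was between 78 and 95. With a line term for the AAVS1 libraries alone, a model chosen after that result was seen, it was 102, and between 11 and 13 with any 1 of the 4 left out. The library numbers in the file headers are 1 and 3 for the MOLM13 label and 5 and 7 for OCI-AML4, so the label and the order of the libraries cannot be told apart.

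The labels did not separate genes into present and absent. Genes with at least 100 counts in both libraries of one label and 3 or fewer in both of the other numbered 0 in either direction. With at least 50 counts there were 6 present under MOLM13 only and 2 under OCI-AML4 only, and by editor 2 in KO only and 6 in CBE only. Pearson correlations of log2 CPM ran from 0.881 (KO 1 with CBE 2) to 0.909 (KO 2 with CBE 1) over all tested genes, where low counts weigh most. Over the 10591 genes above the median level they ran from 0.951 (KO 1 with CBE 2) to 0.965 (KO 2 with CBE 2). There the median absolute log2 ratio was smallest within the labels (0.212 for OCI-AML4 and 0.232 for MOLM13) and between 0.242 and 0.279 in the other pairs. No reference profile of either line was used here, so agreement with the line names was not tested.

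Structured RNAs were among the calls with the smallest p. RNA5SP149, given above, was higher under MOLM13 by 2.09 ± 0.12 on the log2 scale (SE; adjusted p = 1.3e-36 in edgeR). RN7SKP255 stood at 682.9, 141.2, 582.2 and 177.8 (2.02 ± 0.15, adjusted p = 1.5e-24, edgeR), with no overlap between the labels. RN7SL1 was higher by 0.58 and SCARNA11, a Cajal body RNA, by 0.79, the latter at 1971, 1305, 2626 and 1385. Protein-coding genes made 152 of the 198 calls (1.17% of 12990 tested), 87 higher and 65 lower under MOLM13. The 4 called of 122 snRNAs (3.28%) and the 4 called of 65 copies of nuclear ribosomal RNA (6.15%) were all higher. Of 143 small nucleolar and Cajal body RNAs 7 were called, 6 of them lower, and of 13 mitochondrial mRNAs 3 were called (23.1%), all lower. Reads of near-identical copies limit what these values say of single genes.

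Under the OCI-AML4 label SNORD17, SNORD15B and RMRP were higher, with log2 fold changes for MOLM13 of -0.70 ± 0.07 (SE), -0.97 ± 0.10 and -0.56 ± 0.05. These SE rest mostly on spread pooled over genes. In KO and CBE the label differences were -0.75 and -0.66 for SNORD17, -1.10 and -0.84 for SNORD15B, and -0.75 and -0.38 for RMRP. SNORD15B stood at 1377, 3022, 1732 and 3150, with the labels apart. MIR142HG, the host transcript of the haematopoietic miRNA miR-142, stood at 103.9, 231.3, 107.5 and 218.4, so its level under OCI-AML4 was about 2-fold higher (-1.06 ± 0.10 on the log2 scale, adjusted p = 1.9e-15 in edgeR). EIF3J, a translation initiation subunit, stood at 21.6, 46.1, 23.7 and 57.3 (-1.16 ± 0.14). PCNT, a centrosome scaffold, stood at 44.1, 30.5, 45.4 and 29.4 and was higher under MOLM13 by 0.61 ± 0.08. These 4 genes (PCNT, EIF3J, SCARNA11 and RMRP) were called with any 1 library left out of the fit with 1 line term. When 1 library was left out of the fit with the line term for AAVS1 alone, PCNT was not called in any of the 4 cases, EIF3J and SCARNA11 not without CBE 1 or without CBE 2, and RMRP not without KO 1 or without KO 2. RN7SL1 and RMRP were not called by limma-voom.

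Of the 257 tested list genes 7 (2.72%) were called. ELANE and PRTN3, with values given above, were lower under MOLM13 by log2 fold changes of -0.58 ± 0.10 (SE) and -0.42 ± 0.07. They were 2 of the 12 granule genes tested, 11 of which had a negative log2 fold change, with a median of -0.23 beside -0.01 over all genes. BBC3, a p53 target that promotes apoptosis, stood at 72.8, 126.1, 75.0 and 119.2 (-0.70 ± 0.10), and DDIT4, a stress-induced inhibitor of mTORC1, at 479.2, 702.3, 494.9 and 698.1 (-0.50 ± 0.07). Both were lower in both MOLM13-labelled libraries without overlap. MIR142HG and KDM5D, a Y-linked histone demethylase (0.51 ± 0.10), were also called. APOA1, an apolipoprotein of liver, had 12, 173, 0 and 80 counts and was called at -5.22 ± 1.30, a value that rests on few counts. With any 1 library left out of the fit with 1 line term, PRTN3, BBC3, DDIT4 and MIR142HG were called and ELANE (between -0.38 and -0.33), KDM5D and APOA1 were not. With the line term for AAVS1 alone and all 8 libraries, 6 of the 7 were called and APOA1 was not, and with any 1 AAVS1 library left out of that fit MIR142HG alone was called.

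Most of the other list genes with an unadjusted p under 0.05 for the label, none of them called, are given by their log2 fold change. Among transcription factors they were RUNX1 (0.29) and MYC (-0.30). Among mutated genes they were SF3B1 (0.29), SMC1A (0.25), BCOR (0.30), SMC3 (0.36), STAG2 (0.36), NF1 (0.40), EZH2 (0.50), RAD21 (-0.23), CBL (-0.50) and PTPN11 (-0.48). The cohesin genes SMC1A, SMC3 and STAG2 thus had positive values and RAD21 a negative one. Among surface and granule genes they were PTPRC (0.41), CD44 (-0.36), SRGN (-0.25) and LYZ (-0.26), and among p53 targets CDKN1A (-0.32), BAX (-0.47), PMAIP1 (-0.46) and TIGAR (-1.31). Repair and cycle genes included LIG3 (0.26), POLQ (0.41), MCM7 (0.23), TOP2A (0.32), MCM2 (0.43) and AURKA (1.23), and JUN (0.47) and RPS4Y1 (0.35) completed them. In the fit of all 8 libraries with 1 line term STAG2 turned to -0.01, and AURKA (8.26, 1.99, 5.00 and 3.84) turned to between -0.62 and -0.09 with 1 library left out. Some gained a call under other settings: RUNX1 and SF3B1 with limma-voom and with DESeq2 and its own filter, RUNX1, CBL and POLQ among genes with a mean of at least 50 counts, POLQ with DESeq2 and its own filter, MYC with limma-voom, CBL with library totals in place of TMM, and BAX with all 8 libraries and 1 line term.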

How the data were processed

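RNA recovered by chromatin isolation was analysed in 4 AAVS1 control libraries, grouped by title into KO and CBE with 2 each. The deposited values are whole-number counts per gene, not normalised by the authors. Per the file headers they were made by featureCounts 2.0.6 on the Ensembl 112 annotation of GRCh38, with no strand option, each read of a pair counted on its own, and reads of several positions or several genes not counted. The aligner is not given in the sources used here. The 2 records broken over lines (TTN and ANK2) were rejoined. Symbols matched 62541 of 63140 identifiers. RNA classes came from GENCODE v29 (58126 genes), with RefSeq by symbol bringing the total to 58518, and the other 4622 had none.

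A level is CPM divided by exon length in kilobases. Contrasts used edgeR 4.0.16 (TMM, filterByExpr, robust quasi-likelihood F-test, R 4.3.3) with editor and line label in the model and Benjamini-Hochberg adjustment over all genes tested. Scripts were tested on simulated data. Alternatives used DESeq2 1.42.0, limma 3.58.1, other normalisations and filters, halved counts, all 8 libraries, and each library left out. Replicate numbers pair libraries of the same line label in the titles, and deviations from the group means correlated across pairs at 0.0372 over all genes, 0.169 above the median level and 0.306 in the top 25%. Precision is set by the depth (23531833 to 31869901 counts), with 1 residual degree of freedom per gene. The members and gene lists were chosen with earlier results of these data known.

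Named genes are the 5 highest by mean level in each class (mean of at least 100 counts), in each list the 4 highest, those with 3 or fewer counts in every library and those with an unadjusted p under 0.05, the 5 smallest p in each direction of each contrast, and PPP1R12C. A few others were added after their values were seen. A few genes and sequences are not reported here.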

Additional observations from a re-analysis of the deposited data

Results flagged for a closer look

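The KO minus CBE difference in the share of counts had opposite signs under the line labels in 3 RNA classes, with 1 library per editor under each label, and the difference between the labels was not tested. For 7SL, RMRP and other small RNAs it was -0.530 percentage points for MOLM13 and 0.257 for OCI-AML4. For long non-coding RNA it was 0.00892 and -0.00231 percentage points. For genes without an annotated class it was 0.0130 and -0.0105 percentage points.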

How the results depend on the processing

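For KO against CBE, the count of 0 called genes became 2 with library totals in place of TMM (RMRP at -0.12 and MT-RNR2 at -0.14 on the log2 scale), 1 with limma-voom (MT-RNR1 at -0.16) and between 0 and 7 with 1 library left out of the fit of all 8, where the 7 came without KO 2. Without KO 2, PPP1R12C turned to -0.0729, and without CBE 2, ITGAM turned to -0.0315. The cause was not tested. Without the replicate block, 0 genes were called and 625 had an unadjusted p under 0.05, against 932 with the block.

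For the line label, the 198 calls became 48 with no editor term and 117 with DESeq2 on the same genes. With all 8 libraries and 1 line term, which also draws on the HOTSCRAMBL libraries, there were 193, and 95, 93, 85 and 78 without CBE 1, CBE 2, KO 1 and KO 2. With a line term for the AAVS1 libraries alone, chosen after those counts were seen, there were 102, and 11 to 13 with 1 left out, when the contrast rests on the pair of the other editor. The remaining settings gave 170 to 251. In the fit with 1 line term, STAG2 turned to -0.0127 with all 8 libraries, -0.0288 without CBE 1, -0.0290 without CBE 2, -0.257 without KO 1 and -0.256 without KO 2. AURKA turned to -0.0889 without CBE 1 or CBE 2, -0.621 without KO 1 and -0.618 without KO 2. With the line term for AAVS1 alone, JUN turned to -0.007327 without KO 1 and -0.006618 without KO 2. The cause was not tested.

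The counts of expressed and silent genes stayed within 1.5 times under other level minimums, the other denominator and with any library left out. Of 57 genes named as highest in their class, 39 stayed among the 5 highest by CPM without length. Depth limits low genes most: in the 25% with the lowest level the median 95% interval of KO against CBE reached 5.69 (log2) to either side.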

Other observations

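Gene families that mark other tissues mostly had 0 counts. They were chosen after the data were seen and are given as counts, beside 24.1% silent and 46.5% expressed over all protein-coding genes. Reads that fit several places were not counted, so a member with near-identical copies can be at 0 though transcribed. Of 389 olfactory receptor genes, 317 had 0 counts in all 4 libraries and 2 were expressed. Silent members numbered 87 of 94 keratin-associated protein genes, 48 of 56 keratin genes, 37 of 39 beta-defensin genes, and 23 of 25 MAGEA and GAGE genes, which are normally limited to testis. Immunoglobulin V segments were silent in 135 of 143 cases and T cell receptor alpha and beta V segments in 91 of 94.

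Not every family of restricted genes followed. Of 24 bitter taste receptor genes (TAS2R), 6 were silent and 8 were expressed at a level of at least 1 in each library. Of 66 protocadherin genes, 25 were silent (37.9%) and 2 expressed (3.03%). The zinc finger genes with a ZNF name, many of which are transcribed in most tissues, had 58 silent (11.2%) and 286 expressed (55.1%) members among 519.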
